A study of Mus musculus with 14 samples.

Results

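The Toll-like receptors of the mouse were examined as a family of 10 genes, Tlr1 to Tlr9 and Tlr13, in sorted brain macrophages and blood monocytes after traumatic brain injury (TBI). Members were chosen by symbol, through the array probes whose accession maps to one of the 10 symbols, among 17175 symbols named on the array. Of the 10 genes, 8 had a named probe. Tlr5, the flagellin receptor, and Tlr13, a receptor for bacterial ribosomal RNA, had none and were not analysed here. Of the 8, 7 passed the filter on dim probes, and the exception was Tlr3. Each of those 7 was well above background on all 14 arrays, so none passed the filter through 1 group alone.

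The series measured gene expression by 1-colour hybridisation on 14 Agilent mouse arrays. Arg1+ brain macrophages (n = 4) and Arg1- brain macrophages (n = 4) were sorted 1 day after controlled cortical impact, a piston injury of the exposed cortex. Post-TBI blood monocytes (n = 3, replicates 1, 3 and 4) came from mice 1 day after the same injury, and normal blood monocytes (n = 3, replicates 2, 3 and 4) from mice with no treatment. All groups were male YARG mice aged 12 to 16 weeks, a strain that carries a fluorescent reporter of Arginase-1 (Arg1), an enzyme that breaks down arginine and is widely used as a marker of alternatively activated macrophages. The reporter divided the brain cells into the Arg1+ and Arg1- fractions. Brain cells were digested with enzymes and passed over Percoll, while blood cells were separated on ficoll, so that tissue and preparation cannot be told apart in any brain and blood comparison. None of the 14 arrays came from a mouse with surgery and no impact, so that impact and surgery cannot be told apart either. The labels do not say whether replicates were separate mice, and p-values therefore measure only the spread between samples, which may be technical.

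Toll-like receptors are membrane proteins of innate immune cells that recognise microbial molecules and molecules released from damaged cells. Tlr1, Tlr2, Tlr4 and Tlr6 act mainly at the cell surface, while Tlr3, Tlr7, Tlr8 and Tlr9 bind nucleic acids inside endosomes. Ligand binding recruits adaptor proteins such as Myd88, and kinases of the Irak family and the IKK complex then release the transcription factor NF-kB, which switches on cytokine and chemokine genes.

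All values are log2 of the processed signal over the 75th percentile of its array, with a lowest possible value of -4.32, and they compare arrays for the same gene but not one gene with another. A gene was called changed at a Benjamini-Hochberg adjusted p under 0.05 in a limma fit of all 14 arrays over 21973 genes and unnamed probes. The 75th percentile lay between 117.5 and 415.1 signal units, and the share of probes above background per array was 50.3% to 68.2%. Arg1 stood at 6.22 to 6.85 on 3 Arg1+ arrays (the spot of replicate 2 was unusable) and at 2.14 to 4.21 on the 4 Arg1- arrays, a difference of 3.25 ± 0.43 (SE, limma adjusted p = 0.000511) that restates the sort. Ptprc (CD45), Itgam (CD11b) and Lyz2, which mark myeloid leukocytes, were well above background on all 14 arrays. Of 9 monocyte and macrophage markers with a probe, 8 were above background on every array in each brain group. In post-TBI blood 8 were, and in normal blood 7. Mertk was above it on 1 of 3 post-TBI and 0 of 3 normal blood arrays. In Arg1+ against Arg1- cells 1 of the 9 was higher and 2 lower. Against post-TBI blood, 2 were higher and 3 lower in each brain group, and 0 were called between the blood groups. In bulk RNA of sorted cells, fewer cells of a type and less RNA per cell cannot be told apart.

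The stretches just before the annotated starts of Tlr8 and Tlr9 are shown because the calls of these endosomal receptors overlap only in part. Both were called lower in Arg1+ cells than in post-TBI blood. Tlr8 was also called in Arg1- cells against that blood, and Tlr9 between the brain groups. RefSeq windows were at hand for 8 of the 10 genes, and not for Tlr4 and Tlr7. Each line gives the 250 bases before the start in GRCm38.p6, in the direction of the gene, at chrX:167264330-167264579 on the minus strand for Tlr8 and at chr9:106222348-106222597 on the plus strand for Tlr9. Capitals mark a match to a searched motif.
Tlr8: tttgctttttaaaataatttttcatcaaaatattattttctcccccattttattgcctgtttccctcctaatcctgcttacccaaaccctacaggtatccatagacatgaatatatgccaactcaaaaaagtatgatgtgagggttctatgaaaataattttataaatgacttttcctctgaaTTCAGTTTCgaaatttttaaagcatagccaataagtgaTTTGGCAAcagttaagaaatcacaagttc
Tlr9: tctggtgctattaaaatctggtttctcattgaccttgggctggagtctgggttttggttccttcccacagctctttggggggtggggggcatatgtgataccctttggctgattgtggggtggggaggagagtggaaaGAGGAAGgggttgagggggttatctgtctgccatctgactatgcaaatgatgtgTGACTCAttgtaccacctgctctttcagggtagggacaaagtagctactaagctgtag

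Motifs were searched as GAGGAAG (bound by PU.1, a master factor of myeloid cells), GGGNNTTTC (from the NF-kB consensus), GAAANNGAA (from the ISRE), TGANTCA (AP-1) and TTGCNNAA (C/EBP), on both strands. In the Tlr9 stretch, GAGGAAG began 112 bases and TGACTCA 58 bases before the start, and the 2 did not overlap. In the Tlr8 stretch, matches on the opposite strand began 67 bases (the ISRE letters) and 29 bases (the C/EBP letters) before the start. The windows of Tlr2, another receptor called below, and of Tlr5 held 0 matches and are not shown. Other windows not shown did hold matches, to the PU.1 letters for Tlr1 and Tlr13 and to the NF-kB and C/EBP letters for Tlr3. A window of Tlr6 held the ISRE and C/EBP letters. Matches were therefore not particular to Tlr8 and Tlr9. Among all 32851 windows of this length, 10.6% held the PU.1 letters, 6.75% the AP-1 letters and 9.56% the C/EBP letters, against 3.72% for NF-kB and 7.13% for ISRE. The NF-kB and ISRE letters were each shortened by 1 base after matches to the longer forms had been seen, and the Tlr8 stretch holds no match to the longer ISRE form. These matches are descriptions of letters and were not measured as binding.

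Among the surface receptors, Tlr1, Tlr2 and Tlr4 had the same order of group means, highest in Arg1+ brain macrophages, then Arg1- brain macrophages and post-TBI blood monocytes, and lowest in normal blood monocytes. Tlr2, the shared partner in receptors for bacterial lipoproteins, had levels of 2.59, 2.45, 2.46 and 2.40 on the Arg1+ arrays and of 2.31, 1.90, 2.26 and 2.43 on the Arg1- arrays. Its levels were 0.73, 1.01 and 1.30 on the post-TBI blood arrays and 0.39, 0.68 and 0.91 on the normal blood arrays. All 8 brain arrays lay above all 6 blood arrays, while the ranges overlapped between the 2 brain groups and between the 2 blood groups. Group means were 2.48 ± 0.08 and 2.23 ± 0.23 (SD, n = 4 each) in Arg1+ and Arg1- brain macrophages, and 1.01 ± 0.29 and 0.66 ± 0.26 (SD, n = 3 each) in post-TBI and normal blood monocytes. Of the neighbours in this order, the step from Arg1- brain to post-TBI blood was the one that passed the test.

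Tlr4, the receptor for lipopolysaccharide and for several proteins of damaged tissue, had levels of 0.11, -0.16, -0.37 and -0.47 on the Arg1+ arrays and of -1.09, -0.65, -1.33 and -0.97 on the Arg1- arrays. It stood at -1.76, -1.44 and -2.47 on the post-TBI blood arrays and at -1.35, -1.66 and -2.87 on the normal blood arrays. The Arg1+ arrays lay above every Arg1- array, and the Arg1- arrays above every blood array. In both blood groups the lowest array was replicate 4, and those 2 arrays share slide 2. Means were -0.22 ± 0.26 in Arg1+ and -1.01 ± 0.29 in Arg1- brain macrophages (SD, n = 4 each), against -1.89 ± 0.53 in post-TBI and -1.96 ± 0.80 in normal blood monocytes (SD, n = 3 each). No neighbouring groups in this order passed the test, although Arg1+ brain and each blood group did differ. Arg1- brain macrophages also exceeded normal blood monocytes, by 0.95 ± 0.34 (SE, limma adjusted p = 0.0442). How far this call depends on the low array of normal blood replicate 4 (-2.87) was not tested. The probes of Tlr2 and Tlr4 were each printed in 10 spots per array, and the median SD between spots of 1 array was 0.10 for Tlr2 and 0.11 for Tlr4, against pooled SDs between arrays of a group of 0.22 and 0.48.

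Tlr1 and Tlr6, which pair with Tlr2 to bind triacylated and diacylated lipopeptides and lie next to each other on chromosome 5, did not share an order. Tlr1 had levels of 1.34, 1.81, 1.52 and 1.43 on the Arg1+ arrays and of 1.44, 1.39, 1.71 and 1.34 on the Arg1- arrays. In blood it stood at 1.05, 1.04 and 1.51 after TBI and at 0.61, 0.44 and 0.01 in normal mice. Every brain array and every post-TBI blood array lay above the 3 normal arrays. No brain array came from an uninjured mouse, so injury and tissue cannot be told apart for the brain arrays. Means were 1.53 ± 0.21 in Arg1+ and 1.47 ± 0.17 in Arg1- brain macrophages (SD, n = 4 each), 1.20 ± 0.27 in post-TBI and 0.36 ± 0.31 in normal blood monocytes (SD, n = 3 each). No step between neighbouring groups passed the test for Tlr1, but both brain groups exceeded normal blood monocytes. The difference was 1.17 ± 0.19 for Arg1+ cells (SE, limma adjusted p = 0.000141) and 1.11 ± 0.19 for Arg1- cells (SE, limma adjusted p = 0.000317). In the Arg1+ comparison 19.8% of all genes were higher and 20.8% lower. In the Arg1- comparison 3561 of 21973 were higher and 3545 lower.

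The brain arrays of Tlr6 spanned a wider range than its blood arrays, which lay inside it. Its levels were -0.19, -0.45, -1.22 and -1.21 on the Arg1+ arrays, -0.90, -1.51, -0.80 and -1.24 on the Arg1- arrays, -0.55, -0.35 and -0.55 on the post-TBI blood arrays and -0.73, -0.61 and -0.79 on the normal blood arrays. Group means were -0.77 ± 0.53 and -1.12 ± 0.32 (SD, n = 4 each) in Arg1+ and Arg1- brain macrophages, and -0.48 ± 0.12 and -0.71 ± 0.09 (SD, n = 3 each) in post-TBI and normal blood monocytes. The means fell in the order post-TBI blood, normal blood, Arg1+ brain and Arg1- brain, and no neighbours in this order passed the test.

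**Figure D1:**
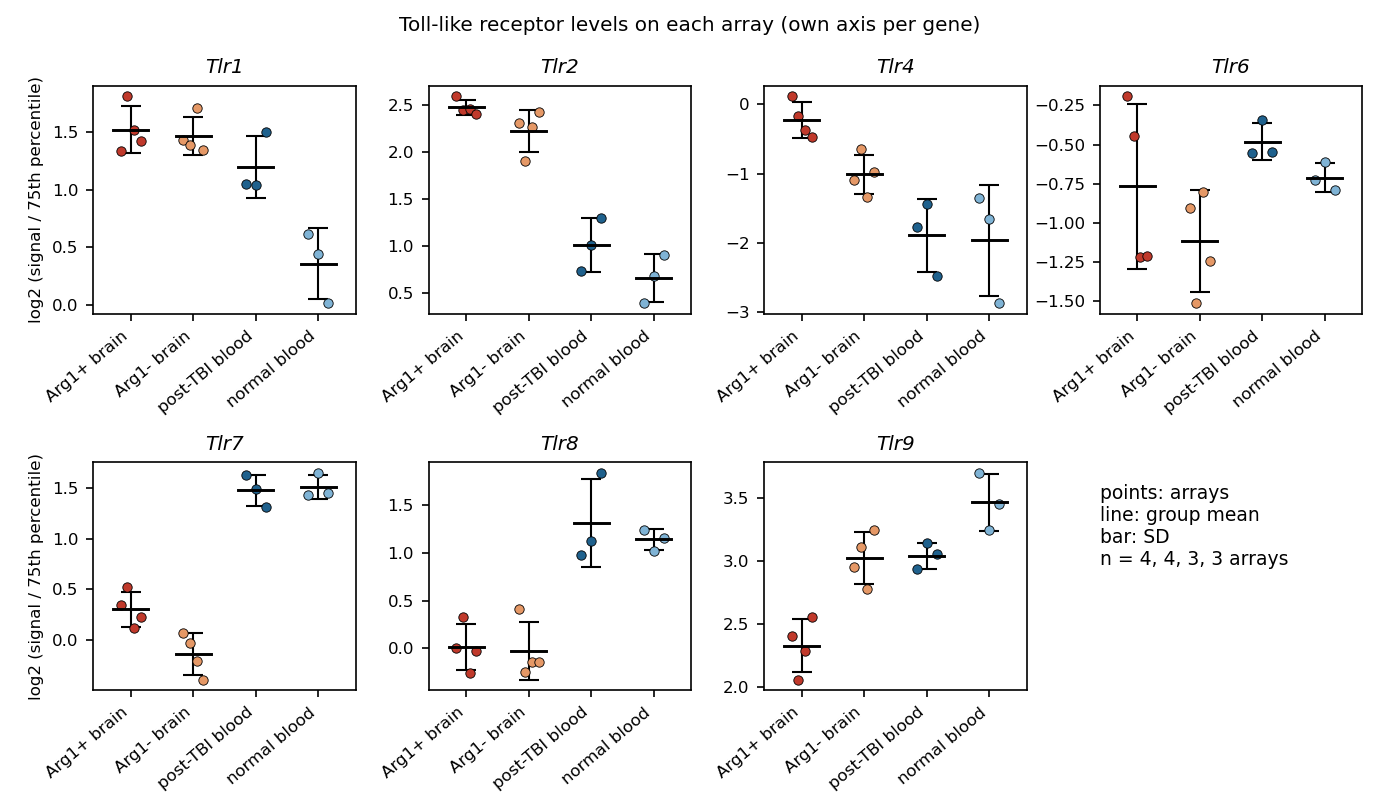
Level of 7 Toll-like receptors on each array, as log2 of the signal over the 75th percentile of the array, with groups along the x axis and a separate y axis per gene. Points are arrays, horizontal lines group means and bars SDs (n = 4, 4, 3 and 3). Tlr2 is higher on all brain arrays, Tlr7 and Tlr8 are higher on all blood arrays, and Tlr9 is lowest on the 4 Arg1+ arrays.

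Among the endosomal receptors, Tlr7 and Tlr8 were lower in both brain groups than in both blood groups. These genes are neighbours on chromosome X. Tlr7, a sensor of RNA rich in guanosine and uridine, had levels of 0.34, 0.52, 0.11 and 0.22 on the Arg1+ arrays and of 0.07, -0.03, -0.21 and -0.40 on the Arg1- arrays. It stood at 1.62, 1.49 and 1.32 on the post-TBI blood arrays and at 1.44, 1.65 and 1.45 on the normal blood arrays. The 4 Arg1+ arrays lay above the 4 Arg1- arrays, and all 8 lay below the 6 blood arrays. Means were 0.30 ± 0.17 in Arg1+ and -0.14 ± 0.21 in Arg1- brain macrophages (SD, n = 4 each), against 1.48 ± 0.15 in post-TBI and 1.51 ± 0.12 in normal blood monocytes (SD, n = 3 each). From high to low the order was normal blood, post-TBI blood, Arg1+ brain and Arg1- brain, and of the neighbours Arg1+ brain and post-TBI blood differed.

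Tlr8, a close relative of Tlr7 known as an RNA sensor in human, had levels of -0.0047, 0.33, -0.26 and -0.03 on the Arg1+ arrays and of 0.42, -0.25, -0.14 and -0.15 on the Arg1- arrays. Its levels were 0.98, 1.12 and 1.84 on the post-TBI blood arrays and 1.24, 1.02 and 1.16 on the normal blood arrays. Replicate 1 of the Arg1- group was the highest brain array and replicate 4 of the post-TBI group the highest blood array. Means were 0.01 ± 0.24 in Arg1+ and -0.03 ± 0.30 in Arg1- brain macrophages (SD, n = 4 each), against 1.31 ± 0.46 in post-TBI and 1.14 ± 0.11 in normal blood monocytes (SD, n = 3 each). From high to low the order was post-TBI blood, normal blood, Arg1+ brain and Arg1- brain. Of the neighbours, Arg1+ brain and normal blood differed, by -1.13 ± 0.23 (SE, limma adjusted p = 0.000904).

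Tlr9, the sensor of DNA with unmethylated CpG, showed another pattern, in which the Arg1+ cells were the group that stood apart. Its levels were 2.41, 2.06, 2.29 and 2.56 on the Arg1+ arrays and 2.95, 3.12, 2.78 and 3.25 on the Arg1- arrays. It stood at 2.94, 3.14 and 3.06 on the post-TBI blood arrays and at 3.70, 3.25 and 3.45 on the normal blood arrays. The Arg1- and post-TBI blood ranges overlapped, the 4 Arg1+ arrays lay below both, and the normal blood arrays lay above the post-TBI ones. Means were 2.33 ± 0.21 in Arg1+ and 3.02 ± 0.20 in Arg1- brain macrophages (SD, n = 4 each), against 3.04 ± 0.10 in post-TBI and 3.47 ± 0.23 in normal blood monocytes (SD, n = 3 each). From low to high this is also the order, and the neighbours that differed were the 2 brain groups.

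Tlr3, the receptor for long RNA duplexes, was represented by 2 probes that were well above background on 0 of 14 arrays. Every value was at the floor, so the data give no level, order or fold for it and it was left out of the tests.

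Arg1+ against Arg1- brain macrophages asks how the cells that had switched on the Arg1 reporter differ from reporter-negative macrophages of injured brain. Tlr9 was lower in Arg1+ cells, and no Toll-like receptor was called higher. The Tlr9 difference was -0.69 ± 0.15 (SE, limma adjusted p = 0.0154), a level 1.62-fold lower, with a 95% interval of -1.02 to -0.37. Thus 1 of 7 tested members was called lower and 0 of 7 higher, against 2.94% lower and 2.12% higher among all tested genes. The Tlr9 difference held its sign on each of 4 slides, at -0.84, -0.66, -0.56 and -0.72, and with slide as a block it was -0.69 with an adjusted p of 0.00849 by limma. It lost its call without Arg1+ replicate 2 (-0.60, limma adjusted p = 0.0554) and without Arg1- replicate 4 (-0.62, limma adjusted p = 0.054).

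Tlr4 and Tlr7 also had arrays without overlap between the 2 brain groups, both higher on the Arg1+ side, but neither was called. Tlr4 differed by 0.79 ± 0.31 (SE, limma adjusted p = 0.193) and Tlr7 by 0.44 ± 0.15 (SE, limma adjusted p = 0.119). Among all tested genes, 7.5% had Arg1+ arrays wholly above and 7.52% wholly below the Arg1- arrays. Within slides the Tlr4 difference ran from 0.18 to 1.17 and the Tlr7 difference from 0.05 to 0.74. Tlr1 (0.06 ± 0.17), Tlr2 (0.25 ± 0.16), Tlr6 (0.35 ± 0.24) and Tlr8 (0.04 ± 0.21) were not called, with limma adjusted p-values between 0.502 and 0.974. The median difference of the 7 members was 0.25, against 0 over all genes.

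Marker lists of other cell types differed between the brain groups, in both directions. Of 7 tested markers of conventional dendritic cells, 6 were lower in Arg1+ cells, and their summed scaled signal was 0.341 to 0.776 on Arg1+ arrays and 4.93 to 6.86 on Arg1- arrays. Of the 7, Kmo was well above background on 0 Arg1+ arrays, Flt3, Cd209a and Xcr1 on 1 each, Dpp4 on 2, and Ccr7 and Batf3 on 3 each. All 7 were above it on every Arg1- array. Itgae, a marker on the list that was not tested, was above it on no array of any group. Neutrophil markers (8 lower and 1 higher of 13) summed to 11 to 22.1 on Arg1+ arrays and 35.9 to 147.9 on Arg1- arrays, with Elane above background on 0 Arg1+ arrays. Of the 13 neutrophil markers with a probe, 11 were above background on all 4 Arg1+ arrays and 12 on all 4 Arg1- arrays. Patrolling monocyte markers (7 lower and 1 higher of 10) summed to 18 to 24.4 and 29.3 to 39.1 on the same arrays, and natural killer cell markers (2 lower of 8) to 0.249 to 0.513 and 0.961 to 2.53. Plasmacytoid dendritic cells, a cell type known for high Tlr7 and Tlr9, had 0 of 8 markers called, with sums of 5.02 to 6.4 on Arg1+ arrays and 5.28 to 5.98 on Arg1- arrays. B cell markers, from another type that carries Tlr7 and Tlr9, had 1 higher and 0 lower of 8 (Cd22), with sums of 2.43 to 2.93 on Arg1+ arrays, wholly above the 1.85 to 2.32 on Arg1- arrays. Astrocyte and neuron markers had 1 higher each (of 8 and 7), and T cell, microglial and endothelial markers had 0 called (of 7, 11 and 6). The part of these cells in the Tlr9 difference was not tested.

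**Figure D2:**
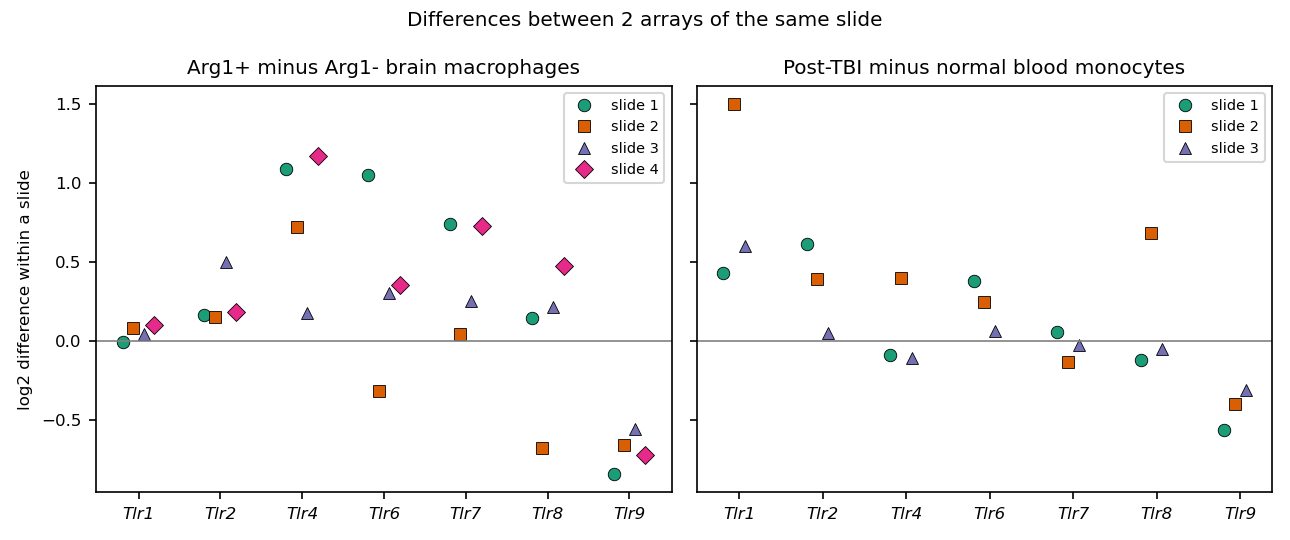
Log2 difference between the 2 arrays of 1 slide for each of 7 Toll-like receptors (x axis), Arg1+ minus Arg1- brain macrophages on the left (4 slides) and post-TBI minus normal blood monocytes on the right (3 slides). Tlr9 is below 0 on every slide in both panels, and the Tlr1 difference in blood is largest on slide 2, at 1.50.

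Post-TBI against normal blood monocytes asks what injury of the brain does to circulating monocytes within 1 day. No Toll-like receptor was called in either direction by limma, and at an unadjusted p under 0.05 there were 2 of 7, Tlr1 and Tlr9. Among all tested genes, 0.114% were called higher and 0.0501% lower, and 6.51% had an unadjusted p under 0.05. Tlr1 was 0.84 ± 0.20 above its normal level (SE, limma adjusted p = 0.178), with all 3 post-TBI arrays above all 3 normal ones, and Tlr9 was 0.42 below it (-0.42 ± 0.18, SE, limma adjusted p = 0.683), with all 3 below. Tlr6 was the other member without overlap, at 0.23 ± 0.28. Arrays wholly above were seen for 4.37% and wholly below for 4.98% of all genes. The differences of Tlr2 (0.35 ± 0.19), Tlr4 (0.07 ± 0.36), Tlr7 (-0.03 ± 0.17) and Tlr8 (0.17 ± 0.24) were smaller than 2 SE, with 95% intervals of -0.05 to 0.76, -0.71 to 0.84, -0.41 to 0.34 and -0.34 to 0.69. The median over the members was 0.17, against -0.00063 over all genes.

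The Tlr1 difference between the blood groups was uneven across slides, at 0.43, 1.50 and 0.60 on slides 1, 2 and 3, and the Tlr9 difference less so, at -0.56, -0.40 and -0.31. Both arrays of slide 2 are replicate 4 of their group. Neutrophil markers summed to 102.3 on the post-TBI array and to 6.85 on the normal array of that slide, against 19.1 and 26.7 on the other post-TBI arrays and 34.7 and 33.6 on the other normal arrays, and 0 of 13 of these markers were called between the groups. B cell markers (0 of 8 called) summed to 6.69 to 6.92 on post-TBI arrays, wholly above the 4.93 to 5.92 on normal arrays, with a median difference of 0.45. Plasmacytoid dendritic cell markers (0 of 8 called) summed to 4.87 to 5.42 on post-TBI and 4.81 to 6.003 on normal arrays. With slide as a block Tlr1 was 0.84 (limma adjusted p = 0.148) and Tlr9 -0.42 (limma adjusted p = 0.486). The part of these cells in the Tlr1 and Tlr9 differences was not tested.

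Arg1+ brain macrophages against post-TBI blood monocytes sets the reporter-positive cells of the injured brain beside the monocytes of the blood at the same day. Tlr2 and Tlr4 were higher in the brain cells, while Tlr7, Tlr8 and Tlr9 were lower. Tlr2 was higher by 1.46 ± 0.18 (SE, limma adjusted p = 1.05e-05), or 2.76-fold, and Tlr4 by 1.67 ± 0.34 (SE, limma adjusted p = 0.00112), or 3.18-fold. With normexp background correction the Tlr4 difference was 1.04 (limma adjusted p = 6.4e-05). Tlr7 fell by 1.18 on the log2 scale (SE 0.16, limma adjusted p = 3.85e-05), Tlr8 fell by 1.31 (SE 0.23, limma adjusted p = 0.00029) and Tlr9 fell by 0.71 (SE 0.17, limma adjusted p = 0.00293). Arrays of the 2 groups did not overlap for any of these 5 genes, against 19.4% of all tested genes wholly above and 20.3% wholly below. Tlr1 (0.33 ± 0.19) and Tlr6 (-0.29 ± 0.26) were not called. These 2 higher and 3 lower of 7 stand beside 20.1% higher and 19.9% lower among all tested genes, and the members' median was -0.29 against -0.02 over all genes.

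Arg1- brain macrophages against the same post-TBI blood monocytes shared the blood arrays with the comparison above. Tlr2 was higher by 1.21 ± 0.18 (SE, limma adjusted p = 9.27e-05), Tlr7 fell by 1.62 on the log2 scale (SE 0.16, limma adjusted p = 2.82e-06) and Tlr8 fell by 1.35 (SE 0.23, limma adjusted p = 0.000316). Among all tested genes 17.2% were higher and 16.2% lower, against 1 and 2 of 7 members. Tlr4 was 0.88 ± 0.34 higher with no overlap of arrays but was not called (limma adjusted p = 0.0596), and Tlr6 was 0.63 lower (-0.63 ± 0.26, SE, limma adjusted p = 0.0798), also with no overlap. In this comparison the arrays of 19.1% of all tested genes lay wholly above and of 17.9% wholly below. With slide as a block both were called, Tlr4 at 0.92 (limma adjusted p = 0.0161; 0.49 with normexp, limma adjusted p = 0.0378) and Tlr6 at -0.74 (limma adjusted p = 0.028), which brought the members called to 5. Tlr9 differed by -0.02 ± 0.17, with a 95% interval of -0.37 to 0.33, and Tlr1 by 0.27 ± 0.19. The members' median was -0.02, as was that of all genes.

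Within slides 1, 2 and 3 the brain and blood differences kept their direction for every called member. For Arg1+ cells, Tlr2 gave 1.59, 1.16 and 1.67, Tlr4 gave 1.56, 2.10 and 1.30, and Tlr9 gave -0.73, -0.77 and -0.38. Tlr7 gave -1.15, -1.20 and -1.40 for Arg1+ cells and -1.89, -1.25 and -1.65 for Arg1- cells. Tlr8 gave -1.13, -2.10 and -1.01 for Arg1+ cells and -1.27, -1.43 and -1.22 for Arg1- cells.

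**Figure D3:**
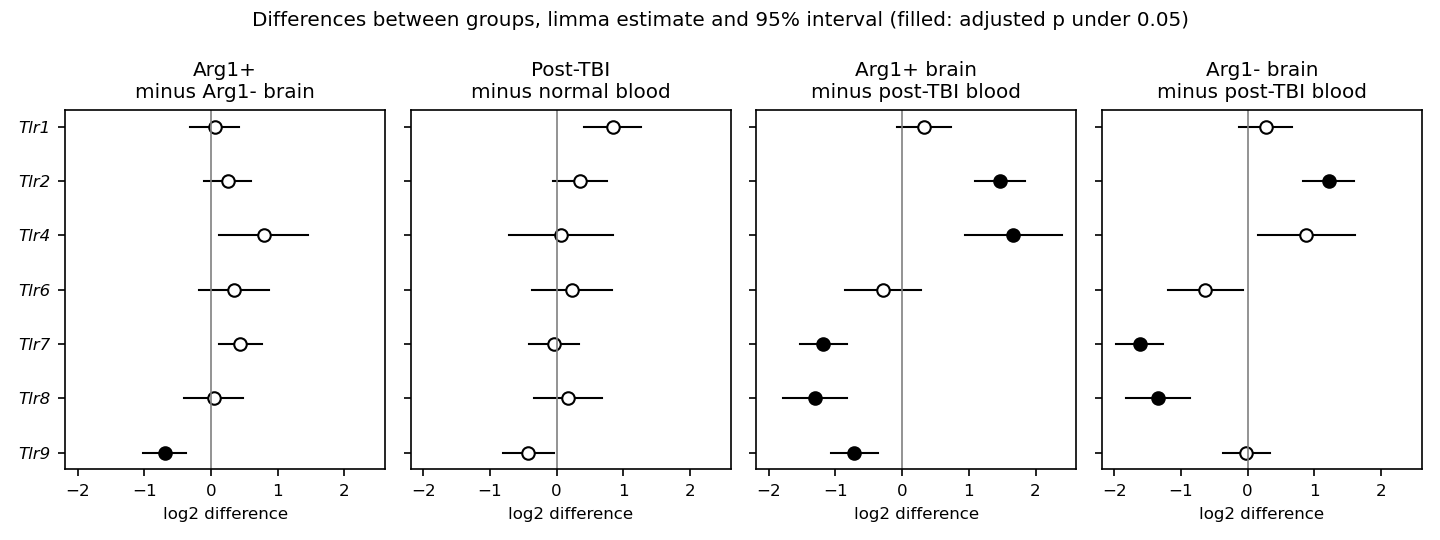
Log2 differences of 7 Toll-like receptors in 4 comparisons, with limma 95% intervals; filled points had an adjusted p under 0.05. Tlr9 is the filled point in the first panel, no point is filled in the post-TBI against normal blood panel, and Tlr2 lies right and Tlr7 and Tlr8 left of 0 in both brain and blood panels.

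Marker lists of other cells differed between brain and blood as well. Microglial markers were higher in both brain groups (10 of 11 in Arg1+ and 9 of 11 in Arg1- cells), with sums of 55.2 to 88.5 on Arg1+ arrays, 43.8 to 61.1 on Arg1- arrays, 11.7 to 13.3 on post-TBI blood arrays and 10.4 to 11.9 on normal blood arrays. Siglech and Slc2a5, on that list, were well above background on 0 blood arrays. Patrolling monocyte markers were lower in brain (9 of 10 in Arg1+ and 10 of 10 in Arg1- cells), with sums of 18 to 24.4 and 29.3 to 39.1 on brain arrays against 199.7 to 241 on post-TBI blood arrays. B cell markers were lower too (7 and 8 of 8), with sums of 2.43 to 2.93 on Arg1+, 1.85 to 2.32 on Arg1- and 6.69 to 6.92 on post-TBI blood arrays. Ms4a1, which marks mature B cells, was above background on 0 brain arrays and on all 3 post-TBI blood arrays, and Ebf1 on no array. Plasmacytoid dendritic cell markers were 2 higher and 0 lower of 8 in Arg1+ cells (Siglech, also on the microglial list, and Pacsin1) and 1 higher and 0 lower in Arg1- cells (Siglech). Their sums were 5.02 to 6.4 on Arg1+, 5.28 to 5.98 on Arg1- and 4.87 to 5.42 on post-TBI blood arrays. Natural killer cell markers were 3 lower of 8 in Arg1+ cells, and 1 higher and 1 lower in Arg1- cells. Astrocyte markers were higher in brain (6 of 8 in Arg1+ and 2 of 8 in Arg1- cells), with sums of 4.08 to 6.43 on Arg1+, 3.37 to 5.44 on Arg1- and 1.68 to 2.20 on post-TBI blood arrays. The 7 neuron markers split into 4 higher and 1 lower for Arg1+ cells, against 3 higher and 1 lower for Arg1- cells. The 6 endothelial markers gave 3 higher and 1 lower for Arg1+ cells, with 2 higher for Arg1- cells. Neutrophil markers were 2 higher and 4 lower of 13 in Arg1+ cells, and 8 higher and 2 lower in Arg1- cells. Conventional dendritic cell markers were 6 lower of 7 in Arg1+ cells, and 1 higher and 2 lower in Arg1- cells. T cell markers were 4 and 3 lower of 7 in Arg1+ and Arg1- cells. The part of these cells in the receptor differences was not tested.

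The other genes of the pathway were followed in 8 lists with 85 genes, of which 76 were tested. Between Arg1+ and Arg1- brain macrophages 8 were higher and 3 lower, and between post-TBI and normal blood monocytes 2 were higher and 0 lower. Against post-TBI blood monocytes, Arg1+ cells had 30 higher and 21 lower, and Arg1- cells 26 higher and 18 lower. Among all tested genes, 2.12% were higher and 2.94% lower between the brain groups, and 0.114% and 0.0501% between the blood groups. Against post-TBI blood these shares were 20.1% and 19.9% for Arg1+ cells and 17.2% and 16.2% for Arg1- cells, and they are the background of each list that follows. The median difference over these 76 genes was 0.07, -0.06, 0.13 and 0.03 in these 4 comparisons.

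Among 7 tested co-receptors and ligand carriers, 2 were higher and 0 lower in Arg1+ than in Arg1- cells. Cd36, a scavenger receptor that works with Tlr2, was higher by 2.21 ± 0.24 (SE, limma adjusted p = 8.66e-05), and Ly96 (MD-2), the lipopolysaccharide-binding partner of Tlr4, by 0.78 ± 0.18 (SE, limma adjusted p = 0.0213). Against post-TBI blood, Arg1+ cells had 3 higher and 2 lower, and Arg1- cells 1 higher and 3 lower. Cd14, which hands lipopolysaccharide to Tlr4, was higher by 2.05 ± 0.31 in Arg1+ and by 1.62 ± 0.31 in Arg1- cells, and Ly86 (MD-1), partner of the receptor homologue Cd180, was lower in both (-1.31 ± 0.22 and -0.93 ± 0.22). Cd36 was higher than in post-TBI blood in Arg1+ cells (0.79 ± 0.26) and lower in Arg1- cells (-1.42 ± 0.26). Ly96 was higher in Arg1+ cells (0.91 ± 0.20). Lbp, the lipopolysaccharide-binding protein, was lower in Arg1+ cells (-1.22 ± 0.39) and Hmgb1, a nuclear protein that acts as a danger signal when released, was lower in Arg1- cells (-0.90 ± 0.29).

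Most endosomal proteases that trim the nucleic acid-sensing receptors were higher in brain cells than in blood. Between Arg1+ and Arg1- cells 3 of 5 were higher, Ctsk (cathepsin K) by 1.33 ± 0.30, Ctsl (cathepsin L) by 1.19 ± 0.20 and Lgmn (asparagine endopeptidase) by 1.05 ± 0.18. Against post-TBI blood 4 of 5 were higher in each brain group. Ctsk differed by 5.52 ± 0.32 in Arg1+ and 4.20 ± 0.32 in Arg1- cells, Ctsl by 4.97 ± 0.22 and 3.78 ± 0.22, Lgmn by 3.59 ± 0.20 and 2.54 ± 0.20, and Ctsb by 1.09 ± 0.13 and 0.66 ± 0.13. In the same cells Tlr7 and Tlr8 themselves were lower, as given above. Of 6 tested folding and trafficking genes, Pdia4, a disulfide isomerase of the endoplasmic reticulum, was higher in Arg1+ than in Arg1- cells (0.80 ± 0.19). Against post-TBI blood, Pdia4 (2.82 ± 0.20 and 2.03 ± 0.20) and the chaperone Hsp90b1 (1.08 ± 0.18 and 0.78 ± 0.17) were higher in both brain groups. Unc93b1, which carries the endosomal receptors out of the endoplasmic reticulum, was lower in Arg1- cells (-0.41 ± 0.14).

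Signalling proteins moved in both directions. Of 5 tested adaptors with a TIR domain, 0 were called between the brain groups, and against post-TBI blood Arg1+ cells had 1 higher and 2 lower, and Arg1- cells 1 higher and 1 lower. Ticam2 (TRAM), the bridging adaptor of Tlr4, was lower in both (-1.37 ± 0.27 and -0.88 ± 0.27), Myd88 was lower in Arg1+ cells (-0.58 ± 0.14), and Sarm1 was higher in both (1.03 ± 0.29 and 0.88 ± 0.29). Among 16 kinases and ubiquitin ligases, Ikbkb (the IKK-beta kinase) was lower in Arg1+ than in Arg1- cells (-0.63 ± 0.13) and lower in both than in post-TBI blood (-2.06 ± 0.14 and -1.42 ± 0.14). Against blood, Arg1+ cells had 3 of these 16 higher and 6 lower, and Arg1- cells 1 higher and 6 lower. Traf3 (-1.36 ± 0.18 and -0.96 ± 0.18) and Irak4 (-1.02 ± 0.31 and -1.23 ± 0.31) were among the lower ones, as was Tab2 (-0.71 ± 0.12 and -0.88 ± 0.12), while Ikbkg (NEMO) was higher in Arg1+ cells (0.86 ± 0.29).

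Of 10 transcription factors, Rel, an NF-kB subunit, was lower in Arg1+ than in Arg1- cells (-1.03 ± 0.27). Against post-TBI blood, Arg1+ cells had 2 higher and 4 lower, and Arg1- cells 3 higher and 3 lower. Jun was the largest of them (3.16 ± 0.23 and 3.03 ± 0.23), Irf7, a driver of interferon genes, was higher too (0.97 ± 0.28 and 1.20 ± 0.28), and Irf1 was lower (-1.40 ± 0.19 and -1.05 ± 0.19). Rel was lower in Arg1+ cells (-1.15 ± 0.29), and Fos was lower in both (-0.82 ± 0.21 and -0.84 ± 0.21). Of 12 negative regulators, 0 were called between the brain groups, while against blood Arg1+ cells had 3 higher and 6 lower, and Arg1- cells 1 higher and 3 lower. Irak3 (IRAK-M), an inactive kinase that holds back Myd88 signalling, was lower in both (-1.15 ± 0.28 and -1.18 ± 0.28), and Tnfaip3 (A20) was higher in Arg1+ cells (1.16 ± 0.30). The deubiquitinase Cyld was lower in Arg1+ cells (-1.10 ± 0.26), and Lair1 (-0.93 ± 0.19 and -0.77 ± 0.19) and Dok3 (-0.92 ± 0.22 and -0.77 ± 0.22) in both. Socs1, counted as higher in both, was well above background on 0 Arg1+ and 0 post-TBI blood arrays, so no fold is given for those 2 groups. On Arg1- arrays it was above background in 3 of 4, at least 2.00-fold higher than in post-TBI blood, a bound set by the dimmest probes above background.

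Target genes that the pathway is known to induce in macrophages were mostly higher in brain cells than in blood. Against post-TBI blood, Arg1+ cells had 12 of 15 higher and 1 lower, and Arg1- cells 13 higher and 1 lower, with list medians of 2.59 and 2.52. The chemokine genes Cxcl1 (5.67 ± 0.53 and 3.58 ± 0.53), Cxcl2 (4.63 ± 0.38 and 3.50 ± 0.38) and Ccl4 (3.91 ± 0.37 and 3.55 ± 0.37) and Acod1 (3.71 ± 0.28 and 3.93 ± 0.28), the enzyme that makes itaconate, were among the higher ones, and Ccl5 was the lower one (-1.15 ± 0.28 and -1.07 ± 0.28). Cxcl1 and Acod1 were above background on 1 of 3 post-TBI blood arrays, and on every brain array. For Cxcl1 the other 2 blood arrays were at the floor, so the sizes of its differences from blood depend on that floor. Between Arg1+ and Arg1- cells, Cxcl1 (2.08 ± 0.49) and Nos2 (1.77 ± 0.32), the inducible nitric oxide synthase, were higher and Il1b, the interleukin-1 beta gene, was lower (-1.27 ± 0.29). Nos2 was above background on 2 of 4 Arg1- arrays. Between post-TBI and normal blood monocytes, Cxcl2 (2.58 ± 0.40, limma adjusted p = 0.0201) and Saa3 (1.84 ± 0.34, limma adjusted p = 0.047), a serum amyloid gene, were higher, and both were above background on 3 of 3 post-TBI arrays and 1 of 3 normal arrays.

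**Figure D4:**
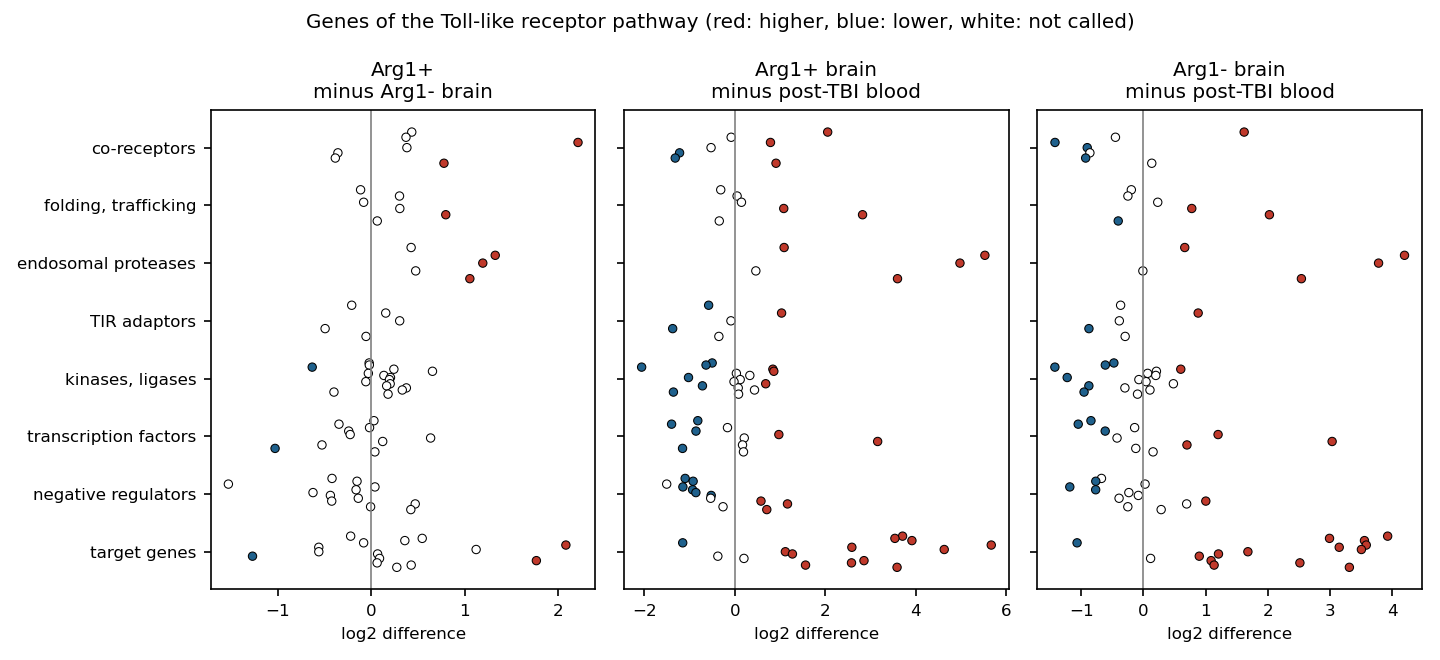
Log2 differences of 76 pathway genes (points) in 8 lists, for Arg1+ minus Arg1- brain macrophages and for each brain group minus post-TBI blood monocytes, with a separate x axis per panel. Red points were called higher, blue points lower, and white points were not called; the endosomal proteases and target genes lie mostly right of 0 in the brain and blood panels.

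The genes whose profile over the 14 arrays was most like that of each called receptor were found by the root mean square (RMS) log2 difference after centring each gene, among 12459 genes with a symbol. Arfgap3, Mylip and Eepd1 were nearest to Tlr2, with RMS differences of 0.16, 0.18 and 0.19. Tnfrsf22, Lig1 and Atp6v1a were nearest to Tlr4 (0.25, 0.28 and 0.30), and Tsc22d3, Pcyox1 and Sqor to Tlr7 (0.15, 0.20 and 0.21). Apbb1ip, Cyth3 and Itch were nearest to Tlr8 (0.17, 0.19 and 0.20), and Cideb, Lrrc18 and Tango6 to Tlr9 (0.23, 0.24 and 0.25). For scale, the SD of the receptor itself over the 14 arrays was 0.82 for Tlr2, 0.85 for Tlr4, 0.76 for Tlr7, 0.69 for Tlr8 and 0.46 for Tlr9. No other Toll-like receptor was among these nearest genes, but only 3 were kept for each, so its absence says little.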

How the data were processed

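RNA of sorted cells was amplified with a whole transcriptome kit and labelled with Cy3, per the labels' protocols. The deposited scanner files hold Agilent Feature Extraction 10.7.3.1 output, per the file headers: processed signal intensity (background-subtracted, not scaled between arrays), median spot and background intensity, and other values, the 0 or 1 flags per spot. A deposited table holds the authors' log2 values, whose normalization is not given in the sources used here; limma is named in the submitters' processing notes.

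Processed signals were divided by each array's 75th percentile, floored at 0.05 and log2 transformed; spots called non-uniform or outliers were left out. From 41174 probes, 464 were dropped for lacking 2 usable arrays in some group and 13101 for not reaching the scanner's above-background flag on 3 arrays. RefSeq names (GRCm38.p6) covered 24836 probes and 17175 symbols. The brightest kept probe stood for a gene. All 14 arrays entered 1 limma 3.58.1 fit (R 4.3.3, 10 residual degrees of freedom, intensity trend, two-sided, Benjamini-Hochberg over 21973 features). The fit was tested on simulated data.

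Whether samples with the same replicate number were paired is not known here. Deviations of same-numbered samples correlated at -0.46 to 0.40 in brain and at 0.21 and 0.35 in blood. So few values cannot decide it, and the reported fit has no replicate term. Deviations of arrays that share a slide correlated at 0.16, 0.04, 0.43 and 0.59 on slides 1 to 4 in brain. Over 3 blood pairs the correlations were 0.13 to 0.35, where the pair of slide 2 is also the pair of replicate 4. The reported fit has no slide term, so differences are also given within slides and, where the call of a member changes, with slide as a block. Other values moved with that block and kept their call. For example, Tlr9 in Arg1+ cells against post-TBI blood was -0.63, against -0.71 as reported. The brain and blood comparisons share the post-TBI blood arrays. Alternatives were normalization, background correction, floor, filter, probe choice, slide or replicate blocks, the authors' table and leaving out each array. Members and lists were chosen with earlier results of these data known. Genes named are all members, called pathway genes (up to 4 per list and comparison by size), the 3 nearest genes per called receptor, and Arg1. Marker genes are named for their detection.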

Additional observations from a re-analysis of the deposited data

Results flagged for a closer look

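Tlr8 in Arg1- brain macrophages replicate 1 had a level of 0.42, far from the other 3 arrays of its group, which lay between -0.25 and -0.14. Its gap to the nearest array was 0.843 of the range of the group, above the Dixon 95% critical value for 4 samples. Of 14 groups of 4 arrays examined (7 receptors in 2 brain groups), this was 1 result past that value, and chance alone gives about 1 in 20. The Tlr8 calls against post-TBI blood held without this array (-1.51 to -1.08 over all arrays left out in turn, Arg1- cells).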

How the results depend on the processing

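The members called in each comparison were recounted under 27 alternatives each. Counts in Arg1+ brain macrophages against post-TBI blood (5) and in post-TBI against normal blood (0) did not move. For Arg1+ against Arg1- cells the count was 0 to 1 when arrays were left out in turn and 1 under every other alternative. For Arg1- cells against post-TBI blood it was 5 with slide as a block, against 3 as reported, and 3 to 4 under the others, arrays left out included. With the replicate number as a block the members called numbered 1, 0, 5 and 3 in the order Arg1+ against Arg1-, post-TBI against normal, Arg1+ against blood and Arg1- against blood, as reported; Tlr9 between the brain groups was -0.69 (limma adjusted p = 0.0357), and calls over all genes were 823, 5, 8104 and 6591, against 1112, 36, 8789 and 7347 without it. Tlr4 in Arg1- cells against post-TBI blood was called under 9 of 27 alternatives, with limma adjusted p-values between 0.0161 and 0.242, and was 0.59 without post-TBI replicate 4 and 0.49 with normexp; in Arg1+ cells it was 1.04 with normexp, against 1.67. With slide as a block calls over all genes were 1505, 30, 9911 and 8139 in the same order.

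Differences near 0 changed sign. With normexp background correction Tlr1 and Tlr8 between the brain groups were -0.0072 and -0.00079, Tlr4 between the blood groups -0.021 and Tlr6 in Arg1+ cells against normal blood 0.014. Tlr4 between the blood groups was -0.065 with a floor of 0.2, and Tlr9 in Arg1- cells against post-TBI blood 0.065 with slide as a block. With arrays left out in turn, Tlr1 ranged from -0.040 to 0.14 and Tlr8 from -0.068 to 0.19 between the brain groups. Between the blood groups Tlr4 ranged from -0.39 to 0.37, Tlr7 from -0.11 to 0.048 and Tlr8 from -0.092 to 0.34. Tlr6 in Arg1+ cells against normal blood ranged from -0.25 to 0.094, and Tlr9 in Arg1- cells against post-TBI blood from -0.096 to 0.061. The cause was not tested.

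Calls over all genes between the brain groups were 504 with normexp, 702 without Arg1+ replicate 3, 596 without Arg1- replicate 3 and 1788 without post-TBI replicate 4, against 1112. Between the blood groups they were 16 with normexp, 22 without the filter, 20 in the authors' table, 0 in a fit of those 2 groups and 2 to 63 with arrays left out (lowest without post-TBI replicate 3, highest without post-TBI replicate 1), against 36. With normexp the median log2 difference of all genes was 0.12 between the brain groups and 0.14 in Arg1+ cells against post-TBI blood, against 0 and -0.023 as reported. The number of arrays limits precision, and Tlr3 was not measured above background.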
